A study of Homo sapiens with 15 samples.

Results

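The genes described here are a set of unfolded protein response genes assigned to the ATF6 and IRE1 arms: XBP1, EDEM1, HERPUD1 and the endoplasmic reticulum (ER) chaperones and cochaperones HSPA5, HSP90B1, DNAJB9, DNAJC3, PDIA4, SDF2L1 and CRELD2. They were chosen by name, and each was read from its probe set with the highest mean level. In the probe annotation used, 9 of the 10 had a probe set, 1 each, among 17687 measured genes; HSP90B1 was not analysed here. RNA came from C42B cells, a castration-resistant line derived from LNCaP prostate cancer cells, and was hybridised to 15 Affymetrix arrays after 6 h of treatment in medium with 10% serum. The groups were enzalutamide (an androgen receptor antagonist, 10 µM) with PF-543 (a sphingosine kinase 1 inhibitor, 15 µM) on 3 arrays, enzalutamide with ABC294640 (a sphingosine kinase 2 inhibitor, 15 µM) on 3 arrays, enzalutamide alone on 2, PF-543 alone on 3, ABC294640 alone on 1, and DMSO vehicle at 0.125% on 3. All are 1 cell line, and the labels do not say whether the arrays of a group came from separate cultures, so each p-value reads the spread of these arrays, which may be technical in part or in whole. Values are log2 expression levels, and a difference of 1 log2 unit is a 2-fold difference.

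When unfolded proteins accumulate in the ER, 3 membrane sensors respond. IRE1 splices the XBP1 mRNA into the form that encodes an active transcription factor, ATF6 is cleaved in the Golgi to release another, and PERK phosphorylates eIF2α, which favours translation of ATF4. ATF6 and spliced XBP1 raise chaperones and ER-associated degradation genes through ER stress elements in their promoters, while ATF4, which other eIF2α kinases also feed, raises amino acid transport and synthesis genes together with DDIT3 and CHAC1. Secretory cells such as prostate luminal cells carry a large ER protein load. The arrays measured total mRNA of each gene in bulk RNA, so spliced and unspliced XBP1 were not told apart, nor were a change in every cell and a change in some cells.

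Promoters are shown for the 3 genes called higher with enzalutamide and PF-543, and for HSPA5 and CRELD2 as chaperone genes that hold an ER stress element and were not called. Each run is the 250 bases before an annotated start of the gene (RefSeq, GRCh38.p14), 5′ to 3′ on the gene's strand, with motif matches in capitals: XBP1 at chr22:28800570-28800819 (minus strand), HSPA5 at chr9:125241344-125241593 (minus), CRELD2 at chr22:49918384-49918633 (plus), HERPUD1 at chr16:56931892-56932141 (plus) and EDEM1 at chr3:5187457-5187706 (plus).
XBP1: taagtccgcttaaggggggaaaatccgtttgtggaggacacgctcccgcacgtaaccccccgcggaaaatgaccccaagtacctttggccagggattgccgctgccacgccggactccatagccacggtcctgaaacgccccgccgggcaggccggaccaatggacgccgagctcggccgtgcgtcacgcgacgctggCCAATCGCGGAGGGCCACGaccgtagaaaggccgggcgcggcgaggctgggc
HSPA5: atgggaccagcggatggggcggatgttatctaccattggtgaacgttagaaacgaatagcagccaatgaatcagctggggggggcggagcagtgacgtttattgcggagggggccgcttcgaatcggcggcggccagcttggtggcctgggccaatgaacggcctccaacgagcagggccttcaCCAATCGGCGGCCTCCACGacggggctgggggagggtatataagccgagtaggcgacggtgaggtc
CRELD2: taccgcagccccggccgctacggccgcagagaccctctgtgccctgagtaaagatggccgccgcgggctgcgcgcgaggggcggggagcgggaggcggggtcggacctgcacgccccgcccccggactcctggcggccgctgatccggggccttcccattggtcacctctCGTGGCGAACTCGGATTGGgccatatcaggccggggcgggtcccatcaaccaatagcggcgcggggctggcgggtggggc
HERPUD1: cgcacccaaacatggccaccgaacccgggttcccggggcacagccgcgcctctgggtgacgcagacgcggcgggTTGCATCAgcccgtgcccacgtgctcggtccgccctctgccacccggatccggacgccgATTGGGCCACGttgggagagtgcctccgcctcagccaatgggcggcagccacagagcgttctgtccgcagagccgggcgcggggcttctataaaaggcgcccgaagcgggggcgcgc
EDEM1: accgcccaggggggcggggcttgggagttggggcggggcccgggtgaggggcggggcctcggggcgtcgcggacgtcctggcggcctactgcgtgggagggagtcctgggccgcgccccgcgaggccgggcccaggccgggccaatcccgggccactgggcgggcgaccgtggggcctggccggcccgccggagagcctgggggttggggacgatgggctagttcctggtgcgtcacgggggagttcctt
The capitals in XBP1, HSPA5 and CRELD2 match the ER stress element, which is CCAAT and CCACG with any 9 bases between them, on the opposite strand in CRELD2. Of 35116 promoter windows of 300 bases (250 before to 50 after a start), searched on both strands, 27 (0.0769%) held it. In HERPUD1 the longer capital run matches the second form of the element, ATTGG and CCACG with any base between them, found in 19 windows (0.0541%), and SDF2L1 also held it, 188 bases before its start on the opposite strand. The shorter run in HERPUD1 matches the C/EBP-ATF element TGATGNAA, which ATF4 binds, on the opposite strand; 1270 windows (3.62%) held this motif, as did 5 of 31 windows of the ATF4 arm genes described further on (ASNS, ATF3, CEBPG, CHAC1 and SLC3A2). HERPUD1 was thus the member with a match to both an ER stress element and the ATF4 motif. None of the member windows held TGACGTG, the core of the element bound by spliced XBP1 and by ATF6 (692 windows, 1.97%), and those of EDEM1, DNAJB9, DNAJC3 and PDIA4 matched none of these motifs. XBP1 had 2 windows, of which the first is shown, and the other matched none of these motifs. A match says that the letters are present in the window, not that a factor binds there.

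The DMSO arrays stood apart from the treated arrays. On the first principal component of all genes the 12 treated arrays lay between -11.6 and 0.0296 and the 3 DMSO arrays between 18.9 and 24.8. Array medians were alike (7.05 to 7.09 against 7.06 to 7.07), but other parts of the distributions did not overlap. First quartiles were 4.62 to 4.68 on treated and 4.71 to 4.76 on DMSO arrays, and highest values 17.47 to 17.56 and 17.42 to 17.46. Differences from DMSO share those 3 arrays, so contrasts without them are given for XBP1, HERPUD1 and EDEM1; their part in the DMSO comparisons was not tested. The luminal markers averaged 13.33 to 13.64 on treated arrays and 13.54 to 13.56 on DMSO arrays (7 of 8 markers measured), above immune (6.02 to 6.35 against 6.21 to 6.37), endothelial (4.78 to 5.28 against 4.96 to 5.43), basal (3.96 to 4.53 against 4.01 to 4.16) and stromal markers (6.94 to 7.25 against 7.38 to 7.72). With no detection calls, none of these levels could be set against background.

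XBP1, the transcription factor of the IRE1 arm, was highest in the 2 combinations and lowest in DMSO. Its level was 13.08, 13.04 and 13.04 with enzalutamide and PF-543, 13.05, 12.92 and 12.92 with enzalutamide and ABC294640, 12.89 and 12.82 with enzalutamide, 12.74, 12.61 and 12.72 with PF-543, 12.62 on the ABC294640 array, and 12.50, 12.47 and 12.63 with DMSO. Every array with enzalutamide (8 arrays, 12.82 to 13.08) lay above every array without it (7 arrays, 12.47 to 12.74). Of the 9 members, XBP1 alone had no overlap in this split, against 0.673% of all genes. Neighbouring groups overlapped or nearly touched: the enzalutamide with PF-543 arrays overlapped the enzalutamide with ABC294640 arrays, and the single ABC294640 array lay within both the PF-543 and the DMSO range.

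Enzalutamide with PF-543 raised XBP1 1.43-fold over DMSO, with means of 13.05 ± 0.02 and 12.53 ± 0.09 (SD, n = 3 each; log2 difference 0.52, SE 0.08, limma adjusted p = 0.00854). XBP1 also rose with enzalutamide and ABC294640, to 12.96 ± 0.08 against 12.53 ± 0.09 with DMSO (SD, n = 3 each), a log2 difference of 0.43 (SE 0.08, limma adjusted p = 0.0369). With a spread estimated from the compared arrays alone, both calls ended (adjusted p = 0.0831 and 0.209 in limma). The call with PF-543 held without each single array; that with ABC294640 ended without DMSO replicate 1 or 2, any array of its combination, any array of the PF-543 combination or PF-543 replicate 1 or 3 (adjusted p between 0.0534 and 0.112). Enzalutamide alone (12.86 ± 0.05, n = 2) stood 0.32 above DMSO on the log2 scale (95% interval 0.12 to 0.52, limma adjusted p = 0.178), and PF-543 alone (12.69 ± 0.07, n = 3) 0.16 above it (-0.02 to 0.34, adjusted p = 0.387). Without any DMSO array in the difference, the mean effect of adding enzalutamide to PF-543 and to ABC294640 was 0.35 (SE 0.07, 95% interval 0.20 to 0.51), which missed the threshold (limma adjusted p = 0.0615). XBP1 passed the moderated F test over the 6 groups (limma adjusted p = 0.0432, with 0.78% of all genes called). That test called 2 of the 9 members, XBP1 and EDEM1. With single arrays left out it called 0 to 2, and the count of 2 held in only 1 of 15 such fits. The F test over the 5 treated groups did not pass for XBP1 (limma adjusted p = 0.224, 0.351% called).

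**Figure D1:**
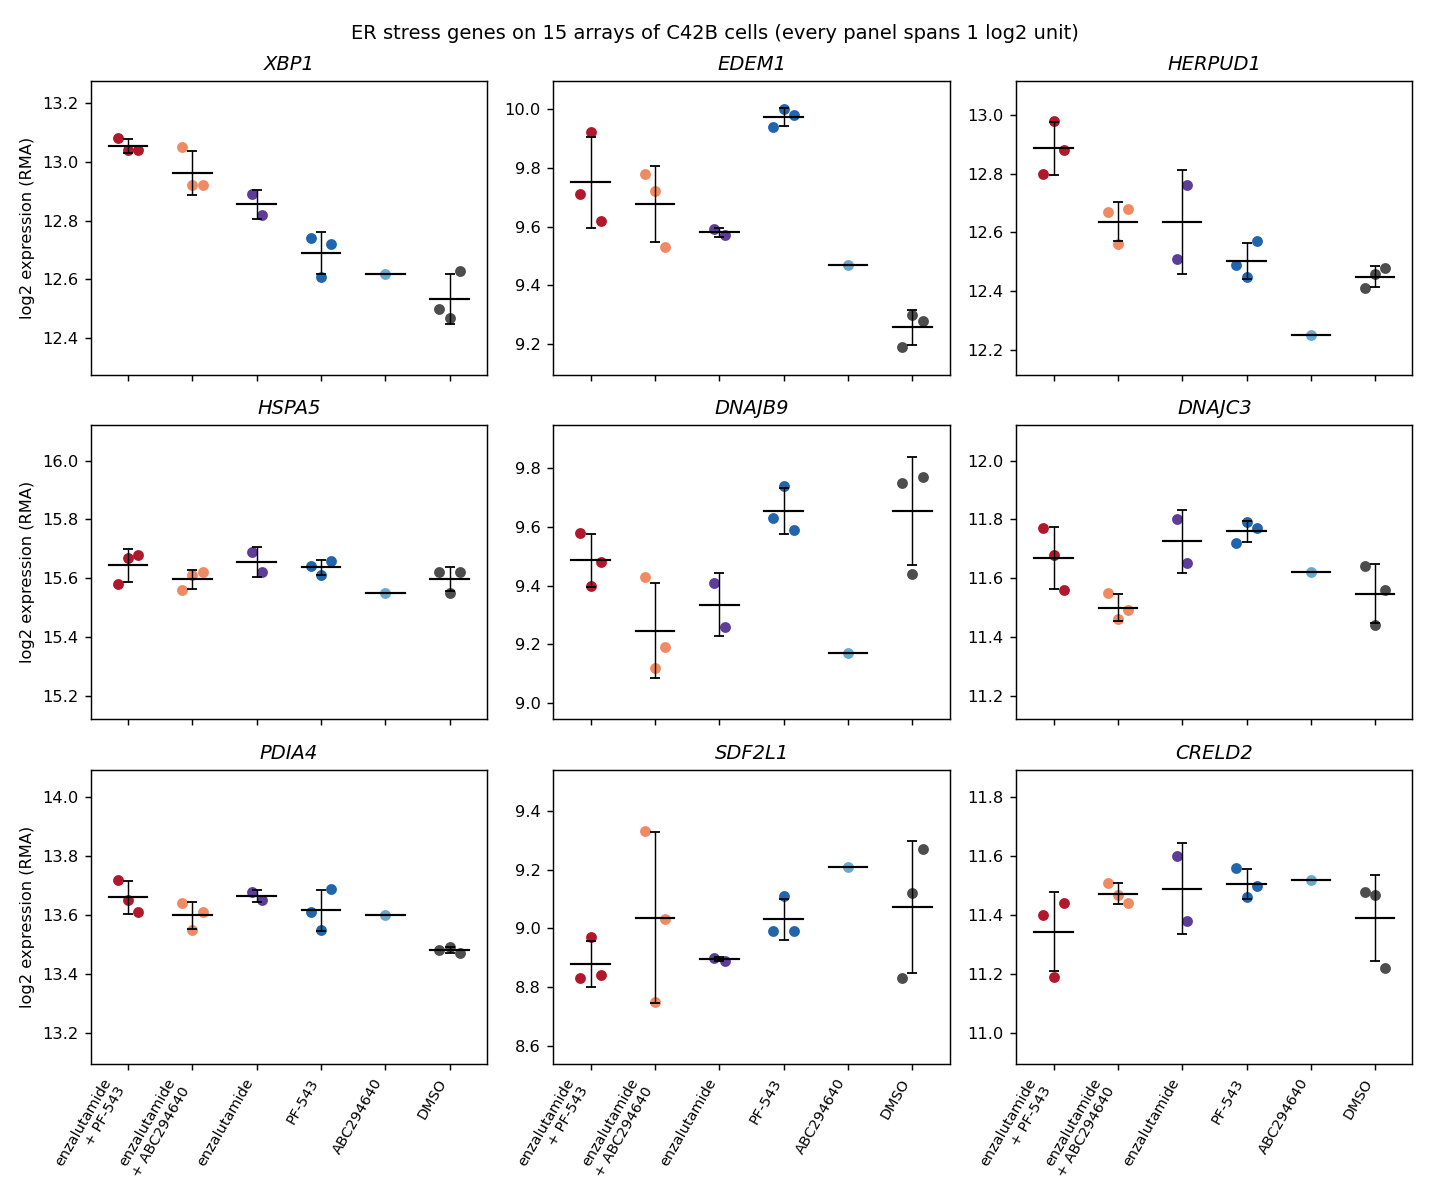
Log2 expression of the 9 measured genes on each of the 15 arrays, by group from enzalutamide with PF-543 (left) to DMSO (right); points are arrays, bars are group means with SD, and every panel spans 1 log2 unit. XBP1 averages 13.05 with enzalutamide and PF-543 and 12.53 with DMSO, EDEM1 is highest with PF-543 alone (9.97), and HSPA5 stays between 15.55 and 15.69.

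HERPUD1, an ER membrane protein of the degradation machinery, had its highest levels with enzalutamide and PF-543. It read 12.80, 12.98 and 12.88 with that combination, 12.67, 12.56 and 12.68 with enzalutamide and ABC294640, 12.51 and 12.76 with enzalutamide, 12.49, 12.45 and 12.57 with PF-543, 12.25 with ABC294640, and 12.41, 12.46 and 12.48 with DMSO. The 3 arrays of the PF-543 combination lay above all 12 others. The arrays of enzalutamide with ABC294640 and of enzalutamide alone overlapped each other and lay above the DMSO arrays, the PF-543 arrays overlapped DMSO, and the ABC294640 array was the lowest. The shares of all genes with these separations were not counted, so they are a description only. Enzalutamide with PF-543 raised HERPUD1 1.35-fold over DMSO, with means of 12.89 ± 0.09 and 12.45 ± 0.04 (SD, n = 3 each; log2 difference 0.44, SE 0.09, limma adjusted p = 0.0310). The HERPUD1 call ended with a spread from those 6 arrays alone (adjusted p = 0.118 in limma), and when any 1 of them was left out (adjusted p between 0.0596 and 0.111). HERPUD1 with enzalutamide and ABC294640 averaged 12.64 ± 0.07 (SD, n = 3) and missed the threshold against DMSO (log2 difference 0.19, 95% interval -0.01 to 0.38, limma adjusted p = 0.336). Over the inhibitor backgrounds, without DMSO, the enzalutamide effect on HERPUD1 was 0.39 (SE 0.08, 95% interval 0.21 to 0.56, limma adjusted p = 0.0632).

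EDEM1, an ER lectin that hands misfolded glycoproteins to degradation, followed another order: its highest group was PF-543 alone. EDEM1 stood at 9.71, 9.92 and 9.62 with enzalutamide and PF-543, 9.78, 9.72 and 9.53 with enzalutamide and ABC294640, 9.59 and 9.57 with enzalutamide, 9.94, 10.00 and 9.98 with PF-543, 9.47 with ABC294640, and 9.19, 9.30 and 9.28 with DMSO. All 12 treated arrays (9.47 to 10.00) lay above the 3 DMSO arrays (9.19 to 9.30), and the PF-543 arrays lay above the arrays of every other group. The share of all genes with treated and DMSO arrays apart was not counted, nor was the share with the PF-543 arrays above all others. The DMSO arrays stood apart over all genes. PF-543 raised EDEM1 1.64-fold over DMSO, with means of 9.97 ± 0.03 and 9.26 ± 0.06 (SD, n = 3 each; log2 difference 0.72, SE 0.10, limma adjusted p = 0.00651). Enzalutamide with PF-543 raised it 1.41-fold, to 9.75 ± 0.15 against 9.26 ± 0.06 with DMSO (log2 difference 0.49, SE 0.10, limma adjusted p = 0.0245). Both calls ended with a spread from the compared arrays alone (adjusted p = 0.0608 for PF-543 and 0.118 for the combination, limma). The EDEM1 call of the combination also ended without any 1 of the DMSO arrays or without replicate 1 or 2 of the combination (adjusted p between 0.0514 and 0.0949), while that of PF-543 held without each single array. With enzalutamide and ABC294640, EDEM1 averaged 9.68 ± 0.13 (SD, n = 3) and was 0.42 above DMSO (95% interval 0.21 to 0.63, limma adjusted p = 0.0717).

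Without DMSO in the difference, the PF-543 effect on EDEM1 (enzalutamide with PF-543 against enzalutamide) was 0.17 on the log2 scale (95% interval -0.07 to 0.41, limma adjusted p = 0.763), against 0.72 for PF-543 over DMSO. EDEM1 was no higher when enzalutamide was added to PF-543. The combination was 0.22 below PF-543 alone on the log2 scale (95% interval -0.43 to -0.01, limma adjusted p = 0.575), with arrays at 9.62 to 9.92 against 9.94 to 10.00. The PF-543 by enzalutamide interaction for EDEM1 was -0.55 (95% interval -0.86 to -0.23), with an unadjusted p of 0.00256 and an adjusted p of 0.428 in limma. Averaged over PF-543 and ABC294640 backgrounds, the enzalutamide effect on EDEM1 was -0.01 (95% interval -0.19 to 0.17). EDEM1 passed the moderated F test over the 6 groups (limma adjusted p = 0.0345, 0.78% of all genes called). As given for XBP1, the count of 2 members in that test held in only 1 of 15 fits with an array left out. The F test over the 5 treated groups did not pass for EDEM1 (limma adjusted p = 0.343, 0.351% called).

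HSPA5 (BiP), the main ER luminal chaperone and the standard readout of the ATF6 arm, was nearly level over all groups. It read 15.58, 15.67 and 15.68 with enzalutamide and PF-543, 15.56, 15.61 and 15.62 with enzalutamide and ABC294640, 15.69 and 15.62 with enzalutamide, 15.64, 15.61 and 15.66 with PF-543, 15.55 with ABC294640, and 15.62, 15.55 and 15.62 with DMSO. The groups with 2 or more arrays overlapped with DMSO and with each other, the single ABC294640 array was level with the lowest DMSO array and below every other treated array, and the highest and lowest group means were 0.105 log2 units apart. Enzalutamide with PF-543 differed from DMSO by 0.05 for HSPA5 (95% interval -0.12 to 0.21, limma adjusted p = 0.792), and enzalutamide with ABC294640 by 0.00 (-0.16 to 0.16). HSPA5 lay toward the upper end of the array, whose highest values were 17.47 to 17.56 on treated arrays and 17.42 to 17.46 on DMSO arrays, and compression of high signals was not tested.

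The other chaperones and cochaperones did not pass the test in any comparison. DNAJB9 (ERdj4), a BiP cochaperone that is a target of spliced XBP1, was 9.43, 9.12 and 9.19 with enzalutamide and ABC294640, 9.17 with ABC294640, and 9.75, 9.44 and 9.77 with DMSO. Those treated arrays lay below the DMSO arrays, and the enzalutamide with ABC294640 difference was -0.41 (95% interval -0.66 to -0.16, limma adjusted p = 0.117). The arrays of enzalutamide alone, 9.41 and 9.26, also lay below DMSO (-0.32, 95% interval -0.60 to -0.04, limma adjusted p = 0.327). Those of enzalutamide with PF-543, 9.58, 9.40 and 9.48, overlapped DMSO (-0.17, 95% interval -0.42 to 0.08). All treated groups together averaged -0.275 from DMSO for DNAJB9 (limma adjusted p = 0.129). With PF-543 alone DNAJB9 averaged 9.65 ± 0.08, against 9.65 ± 0.19 with DMSO (SD, n = 3 each). PDIA4 (ERp72), a disulfide isomerase, lay between 13.55 and 13.72 on the 12 treated arrays and between 13.47 and 13.49 on the 3 DMSO arrays, without overlap. As for EDEM1, the share of all genes apart in this split was not counted. The mean of the treated groups was 0.15 above DMSO (95% interval 0.01 to 0.28, limma adjusted p = 0.210). DNAJC3 (p58IPK), a cochaperone that also inhibits PERK, ranged from 11.46 to 11.80 on treated arrays and 11.44 to 11.64 on DMSO arrays, with its 3 PF-543 arrays (11.72 to 11.79) above DMSO by 0.21 on average (95% interval 0.02 to 0.41, limma adjusted p = 0.276). SDF2L1, a partner of the ERdj3 cochaperone, ranged from 8.75 to 9.33 on treated arrays and 8.83 to 9.27 on DMSO arrays. CRELD2, an ER protein with isomerase activity, ranged from 11.19 to 11.60 and from 11.22 to 11.48. For SDF2L1 and CRELD2 the treated and DMSO arrays overlapped over nearly their whole range. The shares of all genes with groups apart from DMSO as for DNAJB9 and DNAJC3 were not counted.

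**Figure D2:**
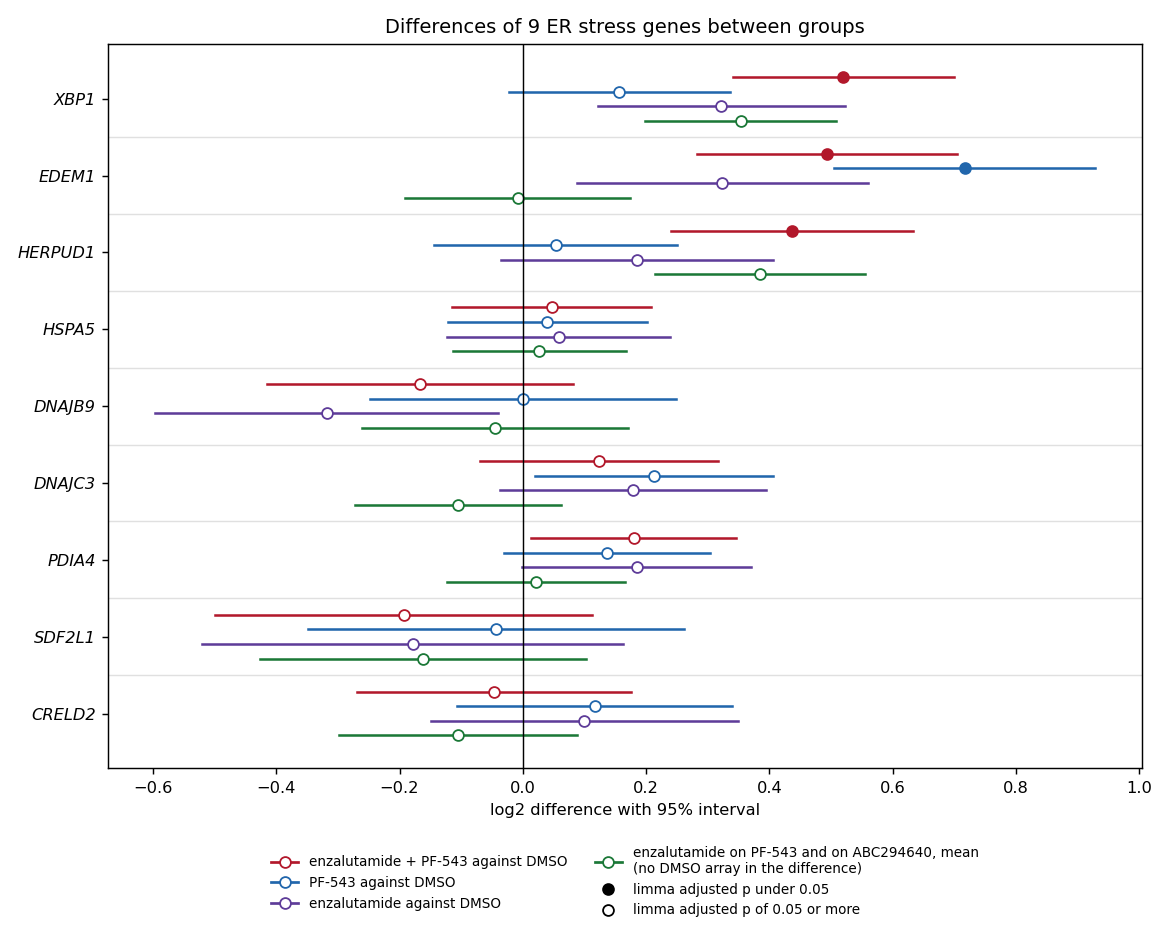
Log2 differences with 95% intervals for the 9 genes in 4 comparisons; filled points passed limma's adjusted threshold. XBP1, EDEM1 and HERPUD1 pass for enzalutamide with PF-543 against DMSO (0.52, 0.49 and 0.44), while the interval of HSPA5 there covers 0 (-0.12 to 0.21).

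Counted over the set, enzalutamide with PF-543 against DMSO called 3 of 9 genes (XBP1, EDEM1 and HERPUD1), each higher, where 2.02% of all genes were called. Enzalutamide with ABC294640 called 1 of 9 (XBP1, 0.701% of all genes), and PF-543 called 1 of 9 (EDEM1, 0.565%). Enzalutamide alone called 0 of 9 (0.311% of all genes), with 3 at an unadjusted limma p under 0.05 (12.9% of all genes), which were XBP1, EDEM1 and DNAJB9, the last of them lower. The single ABC294640 array called 0 of 9 against DMSO (0% of all genes), with DNAJB9 alone at an unadjusted p under 0.05 (9.57%). The mean of all treated groups against DMSO called XBP1 (log2 difference 0.30, limma adjusted p = 0.0418) and EDEM1 (0.43, adjusted p = 0.0200), 2 of 9 against 2.03%. Both of these calls ended without any 1 of the DMSO arrays (adjusted p between 0.0553 and 0.153, limma), and that of XBP1 also without any array of enzalutamide, PF-543 or the PF-543 combination or replicate 2 or 3 of the ABC294640 combination (adjusted p between 0.0506 and 0.0634). These comparisons share their DMSO arrays and are not independent of each other.

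Between treated groups limma called no member. Adding PF-543 to enzalutamide called 0 of 9 (0.0283% of all genes), with HERPUD1 at an unadjusted p under 0.05 (log2 difference 0.25, adjusted p = 0.578; 7.83% of all genes). Adding ABC294640 to enzalutamide called 0 of 9 (0%), with DNAJC3 at an unadjusted p under 0.05 (log2 difference -0.23, adjusted p = 0.718; 6.78% of all genes). Adding enzalutamide to PF-543 called 0 of 9 (0.311%), with XBP1 (0.36, adjusted p = 0.131), HERPUD1 (0.38, adjusted p = 0.157) and EDEM1 (-0.22) at an unadjusted p under 0.05 (8.27% of all genes). Adding enzalutamide to ABC294640, which rests on 1 array of ABC294640, called 0 of 9 (0.0792%), with XBP1 and HERPUD1 at an unadjusted p under 0.05 in limma (0.34 and 0.39, adjusted p = 0.517 and 0.5004; 6.95% of all genes). The mean of these last 2 effects called 0 of 9 (0.384%), with XBP1 and HERPUD1 at an unadjusted p under 0.05 (7.9% of all genes). The PF-543 by enzalutamide interaction called 0 of 9 (0%), with EDEM1 at an unadjusted p under 0.05 (8.07%).

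The 2 combinations hold inhibitors of different sphingosine kinases at the same dose, and 0 of 9 genes differed between them (0.0961% of all genes called). HERPUD1 was the member at an unadjusted p under 0.05 (7.21% of all genes), 0.25 higher with PF-543 than with ABC294640 (95% interval 0.05 to 0.45, limma adjusted p = 0.559). Its arrays did not overlap, at 12.80 to 12.98 with PF-543 and 12.56 to 12.68 with ABC294640. The share of all genes without overlap between the 2 combinations was not counted. That the test was missed does not show that the inhibitors act alike.

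The ATF4 arm was read from 27 measured genes on the same arrays. This list, like the members, was chosen with earlier results of these data known. Its counts and medians are therefore a description and not an independent reading of the arm. With enzalutamide and PF-543 against DMSO, 14 of 27 were called higher (1.12% of all genes) and 0 lower (0.905%), and their median log2 difference was 0.50, against 0.12 for the 9 members and -0.01 over all genes. DDIT4 (a stress-induced mTORC1 inhibitor) rose by 2.36, CHAC1 (a glutathione-degrading enzyme) by 1.97, DDIT3 (CHOP) by 1.66 and GDF15 (a stress-induced cytokine) by 1.49 on the log2 scale (limma adjusted p = 7.89e-07, 7.89e-07, 0.00114 and 0.00102). ATF4 mRNA itself rose by 0.38 (adjusted p = 0.0335, limma). The XBP1 difference of 0.52 was thus above that of ATF4 and below those of CHAC1 and DDIT3.

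Enzalutamide with ABC294640 called 7 of 27 ATF4 arm genes higher (0.339% of all genes), with a median of 0.25 against 0.08 for the 9 members. Enzalutamide alone called 5 higher (0.124% of all genes; median 0.22, against 0.18), and PF-543 alone called 3 higher (0.362%; median 0.16, against 0.12). The single ABC294640 array called 0 of either set (medians 0.09 and 0.09). Over the inhibitor backgrounds, where no DMSO array enters, enzalutamide called 7 of 27 ATF4 arm genes higher (0.0961% of all genes), with a median of 0.22, against 0 of 9 members with a median of -0.01. In the split of the 8 arrays with enzalutamide from the 7 without, ATF4, DDIT3, CHAC1, SESN2, ASNS, SLC6A9 and STC2 did not overlap, 7 of 27, beside 1 of 9 members and 0.673% of all genes. The arm lists differ in length and in the levels of their genes, and no test compared them.

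**Figure D3:**
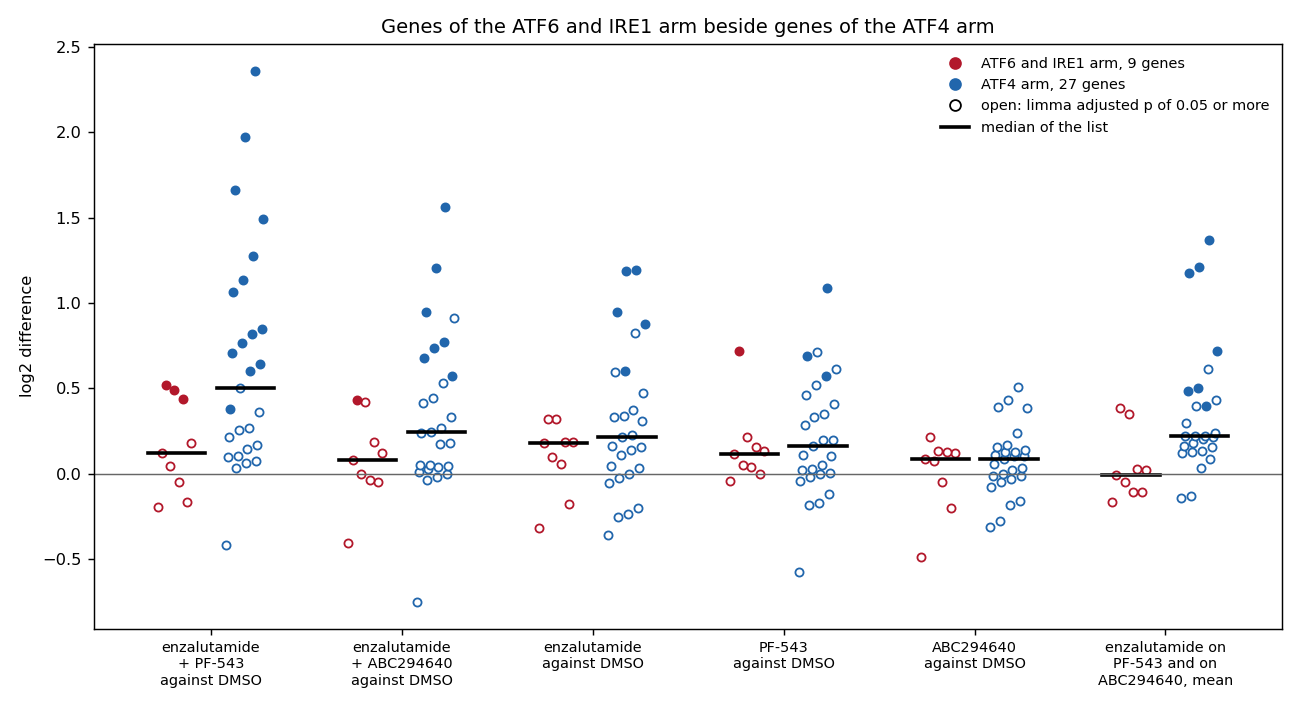
Log2 differences of the 9 ATF6 and IRE1 arm genes and of 27 ATF4 arm genes in 6 comparisons; each point is a gene and bars are medians. With enzalutamide and PF-543 against DMSO the medians are 0.12 and 0.50. Without DMSO, over the inhibitor backgrounds, they are -0.01 and 0.22. Both lists were chosen with earlier results of these data known.

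Of 17 further folding genes and 17 degradation and translocation genes, limma called 0 in any of the 13 comparisons, where 0% to 2.03% of all genes were called, so that counts of 0 in lists of this length are near the background. At an unadjusted p under 0.05, enzalutamide with PF-543 against DMSO had 3 of 17 and 1 of 17, beside 18.7% of all genes. With enzalutamide and PF-543 against DMSO, the medians of these lists were 0.07 and 0.04 on the log2 scale. CALR (a lectin chaperone) differed there by 0.05, HYOU1 (an ER HSP70-like chaperone) by 0.05, PDIA6 (a disulfide isomerase) by 0.05 and MANF (an ER stress-secreted factor) by 0.07. ERO1A, the oxidase that recharges disulfide isomerases, was 0.30 higher and missed the threshold (limma adjusted p = 0.0539). Among 8 sensors and regulators, only NFYC, a subunit of the NF-Y factor that binds the CCAAT part of the ER stress element, was called. It was called with enzalutamide and ABC294640 against DMSO (0.45, limma adjusted p = 0.0475, 0.701% of all genes called). The mean of all treated groups against DMSO also called it (0.38, limma adjusted p = 0.0296, 2.03% called). The other NF-Y subunits went the other way and were not called. NFYA and NFYB differed by -0.20 and -0.26 with enzalutamide and ABC294640, and by -0.11 and -0.17 in that mean. ERN1 (IRE1), ATF6 and EIF2AK3 (PERK) were 0.17, 0.06 and 0.08 above DMSO with enzalutamide and PF-543 and were not called. Of 9 cytosolic heat shock genes, limma called 0 in any comparison, again near the background of 0% to 2.03%, with 1 of 9 at an unadjusted p under 0.05 for enzalutamide with PF-543 against DMSO.

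Levels of the members were set against those of CHAC1 array by array. CHAC1 averaged 12.60 ± 0.12 with enzalutamide and PF-543 (SD, n = 3), 12.19 with enzalutamide and ABC294640, 11.82 with enzalutamide, 11.32 with PF-543, 10.73 with ABC294640 and 10.63 with DMSO, the same order of groups as XBP1. The correlation of their levels over the 15 arrays was 0.97 (Pearson's r; Spearman's rho 0.95), 0.97 over the 12 treated arrays, 0.97 without the 2 arrays farthest from the median of CHAC1, and 0.63 for deviations from the group means over 14 arrays. For HERPUD1 and CHAC1 the correlation was 0.86 over all arrays, 0.88 over treated arrays and 0.18 within groups. For EDEM1 it was 0.51 over all arrays, -0.04 over treated arrays and 0.52 within groups. For HSPA5 it was 0.37 over all arrays, 0.30 over treated arrays and 0.38 within groups. PDIA4 had 0.68 over all arrays and 0.30 over treated arrays. DNAJB9, DNAJC3, SDF2L1 and CRELD2 had -0.35, 0.06, -0.36 and -0.17 over all arrays. Over treated arrays these were -0.07, -0.29, -0.38 and -0.53. All of these describe 15 arrays that share their groups and 1 normalization. CHAC1 was also the gene most like XBP1 among all genes measured. Their correlation is therefore the top of a ranking and not a reading of the whole ATF4 arm.

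**Figure D4:**
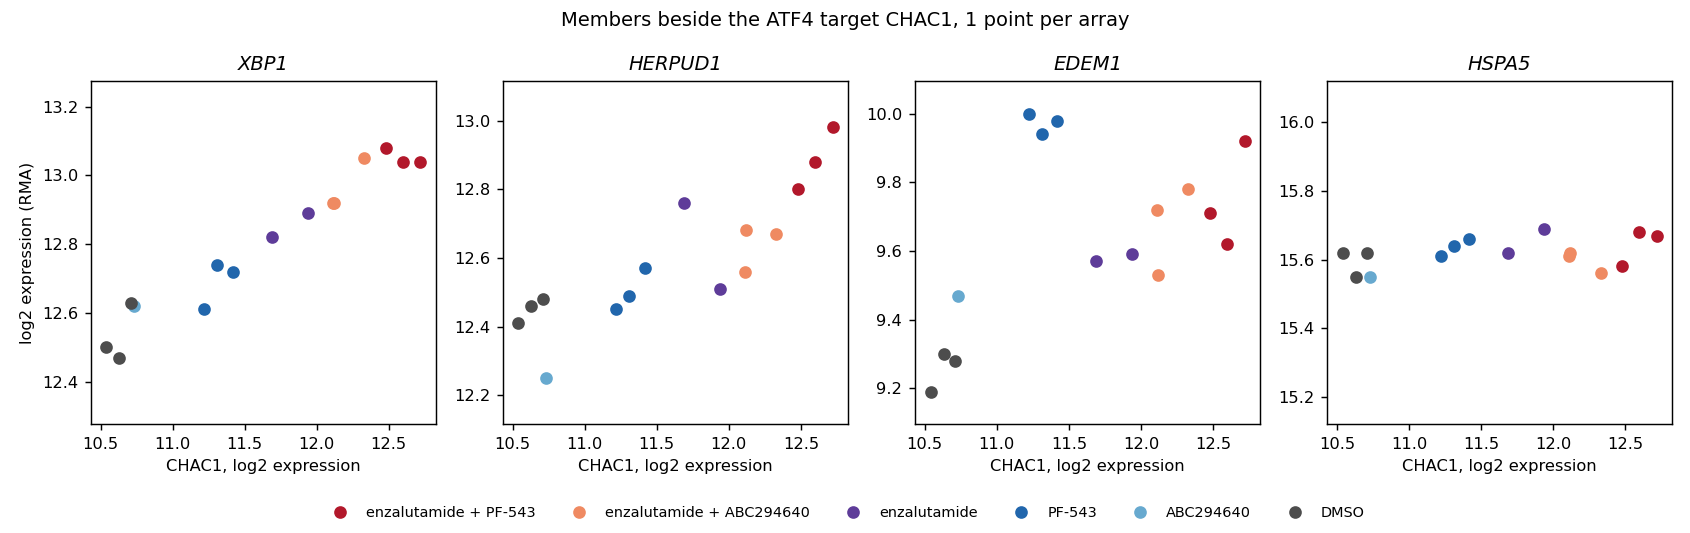
Log2 expression of XBP1, HERPUD1, EDEM1 and HSPA5 against that of CHAC1, an ATF4 arm gene; each point is an array, coloured by group. XBP1 lies along a line (r = 0.97 over 15 arrays), while EDEM1 of the treated arrays has no slope with CHAC1 (r = -0.04 over 12 arrays). CHAC1 was the gene most like XBP1 among all genes measured, so that r is the top of a ranking.

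The genes most like HERPUD1 over all 15 arrays were FOLH1 (r = 0.89), FRMD3 (0.88), ASNS (0.87), FZD4 (0.87) and DDIT4 (0.86). Over the 12 treated arrays they were DDIT4 (0.91), ATF4 (0.91), TYRP1 (0.89), FZD4 (0.89) and FOLH1 (0.89). For HSPA5 the most alike over all 15 arrays were APOA5 (0.84), PLIN5 (0.84), EDRF1 (0.81), NAIP (0.80) and NFE2L1 (0.78). None of these is in the folding, degradation or ATF4 lists. The neighbours of XBP1 were looked up after its values were seen. Over all 15 arrays they were CHAC1 (0.97), SARS1 (0.95), SESN2 (0.94), ASNS (0.94) and STC2 (0.93). Over the 12 treated arrays they were CHAC1 (0.97), LRATD2 (0.93), TRAF3IP2 (0.92), DDIT3 (0.92) and REV3L (0.92). Each of these lists is the top of a ranking of 17687 genes over few arrays, given as a description.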

How the data were processed

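Gene expression was measured on 15 arrays. The deposited values are log2 expression levels, normalized together by the authors with RMA in Transcriptome Analysis Console 4.02, per the submitters' processing notes; the sources used here do not give the RMA variant. RMA pulls array distributions together, so levels are relative. The platform annotation paired 17709 of 21448 probe sets with 1 symbol and left 3739 unnamed; the probe set with the highest mean stood for a gene (17687 genes). limma 3.58.1 (R 4.3.3) fitted group means to all 15 arrays (9 residual and 3.82 prior degrees of freedom), with 13 contrasts and 2 moderated F tests, two-sided, Benjamini-Hochberg adjusted over all genes, threshold 0.05. No arrays were identical (0 pairs). The code was tested on simulated data. Precision is limited by how few arrays there are, and ABC294640, with 1 array, borrows its spread from the other groups. Alternatives covered normalization, probe choice, filtering, prior, weights, samples and left-out arrays. Genes named are the members, up to 4 called genes with the largest change from each other list plus uncalled members of those lists for contrast, and the 5 most alike genes by Pearson's r. Members and lists were chosen with earlier results of these data known. Promoters came from RefSeq GRCh38.p14 windows.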

Additional observations from a re-analysis of the deposited data

Results flagged for a closer look

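In 3 member genes the effect of a drug ran one way on every array in 1 setting and the opposite way in another. The share of all genes that did so was not counted, so this count has no background and is a description only. The enzalutamide effect on EDEM1 was 0.32 alone (against DMSO), -0.22 with PF-543 (against PF-543) and 0.21 with ABC294640 (against ABC294640, 1 array) on the log2 scale. The interaction with PF-543 was -0.55 and did not pass the adjusted threshold (limma adjusted p = 0.428), and the effect on the PF-543 background minus that on the ABC294640 background was -0.43 (limma unadjusted p = 0.0247, adjusted p = 0.729). The enzalutamide effect on DNAJC3 was 0.18 alone and -0.12 with ABC294640, and the ABC294640 effect on PDIA4 was 0.12 alone and -0.065 with enzalutamide. For DNAJC3 and PDIA4 the difference between the 2 settings draws on the single ABC294640 array and was not tested. The effects without that array, 0.18 for DNAJC3 and -0.065 for PDIA4, were not called (limma adjusted p = 0.482 and 0.929). Single arrays were not tested for distance from their own group.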

How the results depend on the processing

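No direction reversed among the called genes, and the log2 difference of XBP1 with enzalutamide and PF-543 stayed within 0.49 to 0.57 and that of EDEM1 with PF-543 within 0.68 to 0.74 under all alternatives run. Counts of the 9 members called did move. Enzalutamide with PF-543 against DMSO (3) gave 0 with only the compared arrays and 1 with a minimum difference of 0.5; leaving out an array gave 1 to 3, with XBP1 alone left without any DMSO array or without replicate 1 or 2 of the combination. Enzalutamide with ABC294640 (1) gave 2 with a filter on dim genes or a robust prior, and 0 with only the compared arrays, with the replicate block or with the 0.5 minimum; leaving out an array gave 0 to 1. PF-543 (1) gave 0 with only the compared arrays, and 1 without any array. All treated groups against DMSO (2) gave 1 with quantile normalization, cyclic loess or array weights, and 0 with the 0.5 minimum; leaving out an array gave 0 to 2, with 0 without any DMSO array. The F test over 6 groups (2) gave 1 with all probe sets or the replicate block, and 0 to 2 with an array left out (0 without any DMSO, enzalutamide or PF-543 array, replicate 1 of the PF-543 combination or replicate 2 of the ABC294640 combination); that over 5 treated groups (0) gave 2 with a robust prior. The robust prior also gave 1 for enzalutamide (0, XBP1), 2 for enzalutamide added to PF-543 (0) and 2 for enzalutamide over the inhibitor backgrounds (0), as did the dim filter for the last. The causes were not tested, save that the compared arrays alone leave fewer samples. Over all genes, enzalutamide with PF-543 against DMSO called 358, and 31 to 1121 under alternatives. Replicate numbers did not pair the samples (26 same-numbered pairs, correlation -0.04 to 0.07, 0 over 0.1; 3 of 14 arrays were most like their own number); with the block, which drops the ABC294640 array, HERPUD1 with enzalutamide and PF-543 had a limma adjusted p of 0.0509 and XBP1 with enzalutamide and ABC294640 one of 0.0613. A fit on the 12 treated arrays, chosen after seeing the data, also called 0 members in the F test and between treated groups. With no detection calls, signal over background could not be judged.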
